A study of Mus musculus with 17 samples.

Results

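The genes described here are the potassium channel genes of the mouse, taken as all protein-coding genes whose symbol starts with Kcn, followed by letters and a number. Antisense transcripts and pseudogenes were left out. Of 53379 genes in the deposited count table, 93 met this rule, and 56 of them had enough reads to be tested, out of 17766 genes tested in all. The set holds pore-forming subunits and the auxiliary subunits that bind them. By known sites of action the members were placed in a vascular, a tubular and an other group.

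Messenger RNA came from kidney cortex enriched for glomeruli, taken from 17 mice on the BTBR background. The first group was 7 ob/ob mice given atrasentan, a drug that blocks the endothelin A receptor. The dose was 5 mg per kg of body weight per day in the drinking water for 6 weeks, from 18 to 24 weeks of age. The second group was 5 ob/ob mice given saline over the same weeks, and the third was 5 wild type BTBR mice killed at the same age, for which the labels give no treatment. The ob mutation of the leptin gene is carried in every cell of the ob/ob mice, which become obese and diabetic. Leptin itself (Lep) had at most 1 read in a library, so it gives no check of the genotype labels. The genotype is written as BTBR ob for the atrasentan mice, as ob/ob-d30 for the saline mice and as WT-d30 for the wild type mice, and the sources used here do not explain d30. The labels give as many mice as libraries, so the errors given are between animals. In the labels the library numbers run group by group, so anything that follows these numbers cannot be told apart from the group.

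Potassium channels let potassium ions leave or enter the cell along their gradient and set the voltage across the membrane. In vessel walls, opening of inward rectifier, ATP-sensitive or calcium-activated channels hyperpolarises smooth muscle or endothelium and lowers vascular tone. In the kidney tubule, basolateral channels recycle the potassium taken up by the sodium pump, and apical channels secrete potassium into the urine or return it for the sodium-potassium-chloride transporter. Podocytes, mesangial cells and macrophages carry channels of their own.

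The results turn on a few members, whose RefSeq promoter windows (GRCm38.p6) are shown first, 5′ to 3′ on the strand of the gene, without the bases of an annotated exon. Kcnj8, which encodes the pore of the vascular ATP-sensitive channel, and Abcc9, which encodes its sulfonylurea receptor and is no member, lie on the minus strand of chromosome 6, 16.2 kb apart. Their windows are chr6:142571615-142571864 and chr6:142702316-142702524. Kcnk5, which encodes an alkaline-activated channel of the proximal tubule, has the window chr14:20181810-20182032 on the minus strand. Kcnj15, an inward rectifier of the proximal tubule, has chr16:95257308-95257557 on the plus strand. Kcnj12, an inward rectifier known from heart and skeletal muscle, has chr11:61065554-61065803 on the plus strand. This window lies inside the annotated span of Kcnj12 and not before the first base of that span. Capitals mark the Sp1 box, searched as GGGCGG on either strand, so that it reads GGGCGG or CCGCCC.
Kcnj8: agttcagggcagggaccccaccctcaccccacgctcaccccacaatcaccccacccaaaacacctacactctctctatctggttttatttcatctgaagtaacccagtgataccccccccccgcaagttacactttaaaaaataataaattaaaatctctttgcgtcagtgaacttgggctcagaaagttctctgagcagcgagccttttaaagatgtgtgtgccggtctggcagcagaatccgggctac
Abcc9: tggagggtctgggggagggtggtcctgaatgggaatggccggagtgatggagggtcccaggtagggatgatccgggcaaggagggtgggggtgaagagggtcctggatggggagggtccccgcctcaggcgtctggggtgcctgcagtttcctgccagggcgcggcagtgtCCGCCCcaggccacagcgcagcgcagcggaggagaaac
Kcnk5: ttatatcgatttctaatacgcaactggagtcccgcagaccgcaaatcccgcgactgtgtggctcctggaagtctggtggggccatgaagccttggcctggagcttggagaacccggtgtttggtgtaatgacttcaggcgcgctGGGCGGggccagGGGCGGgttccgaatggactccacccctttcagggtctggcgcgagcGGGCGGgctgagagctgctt
Kcnj15: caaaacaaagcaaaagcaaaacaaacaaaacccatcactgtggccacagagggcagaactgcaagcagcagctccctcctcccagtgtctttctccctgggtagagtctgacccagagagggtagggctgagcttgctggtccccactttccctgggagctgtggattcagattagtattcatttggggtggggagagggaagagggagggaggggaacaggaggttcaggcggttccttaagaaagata
Kcnj12: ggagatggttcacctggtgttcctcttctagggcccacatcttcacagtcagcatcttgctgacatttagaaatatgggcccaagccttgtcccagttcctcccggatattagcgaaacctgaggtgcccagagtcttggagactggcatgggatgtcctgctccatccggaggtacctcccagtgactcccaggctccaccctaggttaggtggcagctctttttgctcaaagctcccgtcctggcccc
The Kcnk5 window holds the Sp1 box 3 times, at positions 106, 94 and 47, and the Abcc9 window holds it once, at position 79. These positions were counted back from the end of the full 250-base window, before exon bases were removed. The sequences above keep 223 bases for Kcnk5 and 209 bases for Abcc9. Counted from the last printed base, each of these boxes therefore lies closer than its position says. The windows of Kcnj8, Kcnj15 and Kcnj12 hold neither this box nor any of 3 other motifs searched on both strands, the HNF1 half-site GTTAAT, the TATA box TATAAA and the MEF2 site CTAAAAATA. Over 32851 promoter windows of the genome, 32.7% held the Sp1 box, 6.43% the HNF1 half-site, 12.4% the TATA box and 0.469% the MEF2 site. Of 58 windows that belong to tested members, 23 held the Sp1 box, 3 the HNF1 half-site, 1 the TATA box and 0 the MEF2 site. These letters describe the windows and do not show binding of any factor.

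All 11 vascular members were tested, as were 9 of 12 tubular members and 36 of 70 others. Of the 37 members that were not tested, 5 had no read in any library (Kcna10, Kcnj6, Kcnk9, Kcnk16 and Kcnv1), and the other 32 had at most 35 reads in a library. Among the tubular members, Kcna10, Kcnj13 and Kcnmb4 were not tested. At the edge of the low-count filter, Kcna7 was the tested member with the lowest mean, 0.17 CPM (CPM is the read count of a gene scaled to library size), and Kcns1 the untested member with the highest, 0.199 CPM. All 8 calcium- or sodium-activated members were tested, against 20 of 40 voltage-gated members, 9 of 15 inward rectifiers, 7 of 14 two-pore members and 12 of 16 auxiliary subunits. A read in every library was found for 41 of the 56 tested members.

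Gene reads per library ran from 37252939 to 52528747 with atrasentan, from 35938445 to 40268662 with saline and from 29161833 to 40965108 in wild type, and potassium channel genes took 0.0210% to 0.0989% of them. Genes with at least 1 read numbered 21396 to 23081 with atrasentan, 24335 to 25313 with saline and 23901 to 24877 in wild type. Reads outside any annotated gene made up 3.17% to 5.65%, 5.95% to 8.17% and 6.26% to 8.58% in the same groups. The atrasentan libraries were thus below all others in both measures. The part of this in the levels of members with few reads was not tested. Comparison of levels between genes was made per kilobase of exon (RPKM, averaged over all 17 libraries). By that scale Kcnj1, the apical secretory channel of the thick ascending limb and collecting duct, had the highest pooled mean, 22.0 RPKM. Kcnj16, which forms basolateral tubular channels with Kcnj10 or Kcnj15, followed with a mean level of 18.0 RPKM, and Kcnj15 with 10.7 RPKM. This order of the pooled means did not hold in every group. In saline mice Kcnj16, at a mean level of 39.7 ± 26.6 RPKM (SD, n = 5), was above Kcnj1, at 34.2 ± 18.9 RPKM, and Kcnj1 had the highest mean in atrasentan mice (16.3 ± 14.7 RPKM, n = 7) and in wild type mice (17.8 ± 6.11 RPKM, n = 5). No other member passed 10 RPKM in the mean over all libraries, and these 3 held 45.7% of the summed mean RPKM of the set. The next were the two-pore members Kcnk1, Kcnk6 and Kcnk5 with mean levels of 5.84, 5.60 and 5.54 RPKM. Below them came Kcng2, a silent subunit that modifies other voltage-gated channels, with 3.94 RPKM, and Kcnj5, an inward rectifier gated by G proteins, with 3.79 RPKM. Kcnj12 had a mean level of 3.34 RPKM and Kcnj8 one of 3.23 RPKM. Between 1 and 10 RPKM lay 19 members, and 34 tested members lay below 1 RPKM. As the plot of levels shows, the library ranges of neighbours in this order overlap widely, so the order is that of the means only.

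**Figure D1:**
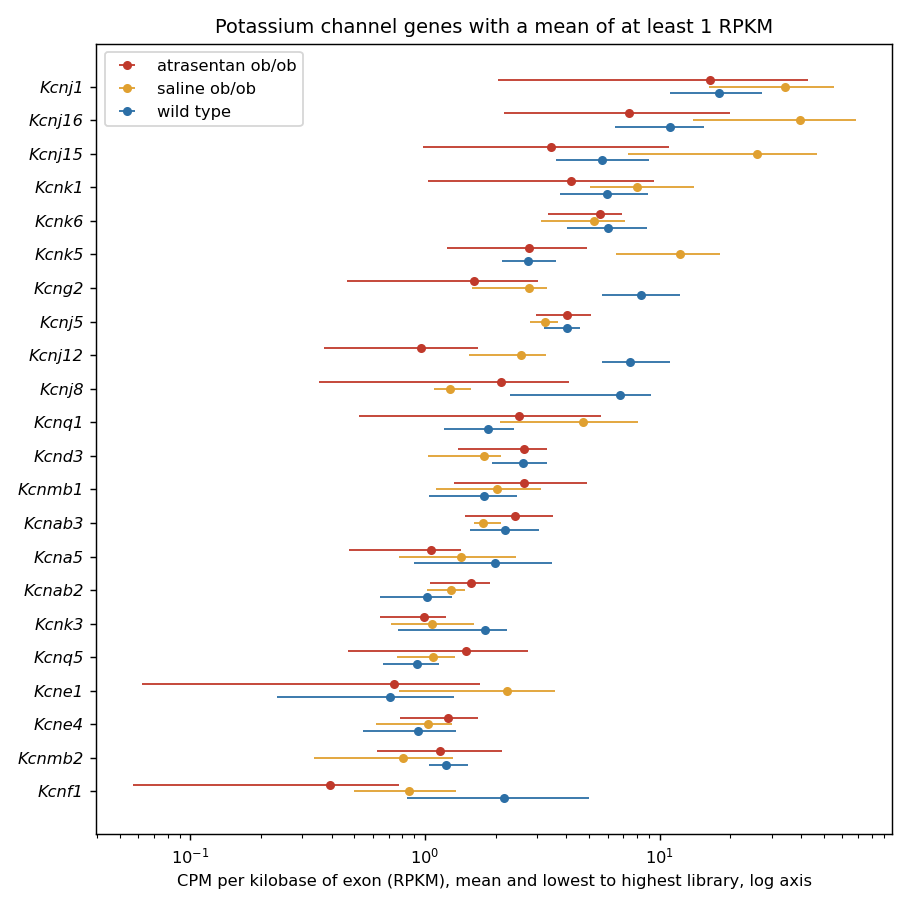
Level of the 22 potassium channel genes with a mean of at least 1 RPKM (CPM per kilobase of exon, log axis) in atrasentan, saline and wild type mice from top to bottom within a gene, with the point at the group mean and the line from the lowest to the highest library of the group. Kcnj1, Kcnj16 and Kcnj15 lead and have wide ranges, the saline line of Kcnk5 lies above both others, and the wild type lines of Kcng2 and Kcnj12 do too.

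The first comparison sets ob/ob mice given saline against wild type mice and asks how the diabetic kidney differs. With edgeR's quasi-likelihood test, 6 of 56 tested members were called at an adjusted p under 0.05, where 5.12% of all genes tested were called. The tubular members Kcnk5 and Kcnj15 rose, so that 2 of 56 were called higher, where 3.21% of all genes were. Kcnj8, Kcnj12, Kcng2 and Kcna6 fell, so that 4 of 56 were called lower, where 1.91% of all genes were. The median log2 fold change was 0.16 over the members and 0.01 over all genes. The saline and wild type groups did not overlap in CPM for 9 members (16.1%), against 7.42% of all genes tested.

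The second asks what differs with atrasentan against saline among ob/ob mice. Of 56 members, 6 rose and 9 fell, where 33.8% of all genes were called, 15.3% higher and 18.5% lower, so the share called was below that background. The median log2 fold change was -0.25 over the members and -0.01 over all genes. Groups did not overlap for 5 members (8.93%), against 11.8% of all genes. In the third comparison, atrasentan-treated ob/ob against wild type mice, 3 members rose and 8 fell, where 29.2% of all genes were called, 14.7% higher and 14.5% lower. There the median log2 fold change was -0.13 over the members and -0.01 over all genes, and groups did not overlap for 7 members (12.5%) against 13.2% of all genes. In all, 22 members were called in at least 1 comparison and 34 in none.

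Of the 9 tested tubular members, 2 rose and none fell in saline-treated ob/ob mice, with a median log2 fold change of 1.34 against wild type. Over all genes tested, 3.21% rose and 1.91% fell there. With atrasentan 3 of 9 fell and none rose, with a median of -1.07 against saline, where 18.5% of all genes fell and 15.3% rose. Against wild type, none of the 9 was called with atrasentan and their median was -0.09, where 29.2% of all genes were called. The first 2 of these comparisons share the saline libraries, so opposite signs in them are not independent.

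Kcnk5, on chromosome 14 (20140057 to 20181809, GRCm38), had 61.4, 46.4, 45.3, 22.2 and 32.3 CPM in saline mice, against 8.4, 7.24, 12.3, 10.6 and 8.08 CPM in wild type mice. With atrasentan its level ran from 4.22 to 16.7 CPM with a median of 10.2 CPM. Every saline library lay above every library of the other groups, and atrasentan and wild type libraries overlapped. The log2 fold change was 2.16 ± 0.32 (SE) for saline against wild type (edgeR adjusted p = 0.00323), -2.13 ± 0.29 for atrasentan against saline (adjusted p = 0.000161) and 0.03 ± 0.29 for atrasentan against wild type (adjusted p = 0.958). The first 2 calls held in each of the 17 fits that left out 1 library.

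Kcnj15 on chromosome 16 (95257558 to 95300260) had 297, 66.1, 269, 46.2 and 139 CPM in saline mice, against 30, 33.0, 37.0, 57.0 and 22.9 CPM in wild type mice. With atrasentan it ran from 6.19 to 69.2 CPM with a median of 16.9 CPM. Saline libraries 1 and 3 were far above the rest, saline library 4 was within the wild type range, and the highest atrasentan library, number 6, overlapped the saline range. Kcnj15 rose in saline against wild type mice (log2 fold change 2.18 ± 0.59, edgeR adjusted p = 0.0429) and fell with atrasentan against saline (-2.91 ± 0.54, adjusted p = 0.000886). The first call was lost without saline library 1, 3 or 5, without any 1 wild type library and without atrasentan library 1 or 3, with adjusted p up to 0.125, and without saline libraries 1 and 3 together the log2 fold change was 1.20 (adjusted p = 0.492). An overlap of 5.27% of its exon bases with Gm49643 cannot be separated without strand.

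Kcnj16 on chromosome 11 (110968033 to 111027968) had the same order of saline libraries as Kcnj15, with 271, 63.3, 261, 54.7 and 131 CPM in saline mice and 25.5, 38.3, 55.7, 61.1 and 38.0 CPM in wild type mice. Atrasentan libraries ran from 8.55 to 78.3 CPM, with a median of 20.2 CPM. Its fall with atrasentan against saline was called (log2 fold change -2.43 ± 0.51, edgeR adjusted p = 0.00197), and saline against wild type missed the threshold (adjusted p = 0.0638). Kcnj1 on chromosome 9 (32372493 to 32399197) had 184, 54.1, 179, 63.8 and 89.0 CPM with saline, against 36.8, 53.8, 91.0, 65.3 and 50.1 CPM in wild type. With atrasentan it ran from 6.79 to 143 CPM with a median of 43.8 CPM, so all 3 groups overlapped. No comparison of Kcnj1 was called. Its log2 fold changes were 0.94 ± 0.62 for saline against wild type (adjusted p = 0.420), -1.07 ± 0.57 for atrasentan against saline (adjusted p = 0.152) and -0.13 ± 0.57 for atrasentan against wild type (adjusted p = 0.891). Without atrasentan library 6 the second of these passed (adjusted p = 0.0347).

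The other tubular members were not called in any comparison. Kcnq1 and Kcne1 encode the pore and the accessory subunit of a luminal channel of the proximal tubule. Kcnq1 averaged 10.3 ± 7.07 CPM with atrasentan (SD, n = 7), 19.2 ± 11.2 CPM with saline (SD, n = 5) and 7.56 ± 1.85 CPM in wild type (SD, n = 5). Kcne1 averaged 2.36 ± 2.21, 7.20 ± 4.07 and 2.28 ± 1.31 CPM in the same groups, and Kcnk1, a two-pore channel of the tubule, 9.37 ± 7.22, 17.9 ± 8.86 and 13.3 ± 5.18 CPM. Kcnj10, the basolateral partner of Kcnj16, averaged 2.58 ± 2.53 CPM with atrasentan, 3.64 ± 2.20 CPM with saline and 2.14 ± 0.757 CPM in wild type. Kcnmb2, an accessory subunit of the large-conductance calcium-activated channel, averaged 3.61 ± 1.56 CPM with atrasentan, 2.52 ± 1.18 CPM with saline and 3.86 ± 0.559 CPM in wild type. The saline mean was the highest of the 3 groups for Kcnq1, Kcne1, Kcnk1 and Kcnj10 and the lowest for Kcnmb2.

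**Figure D2:**
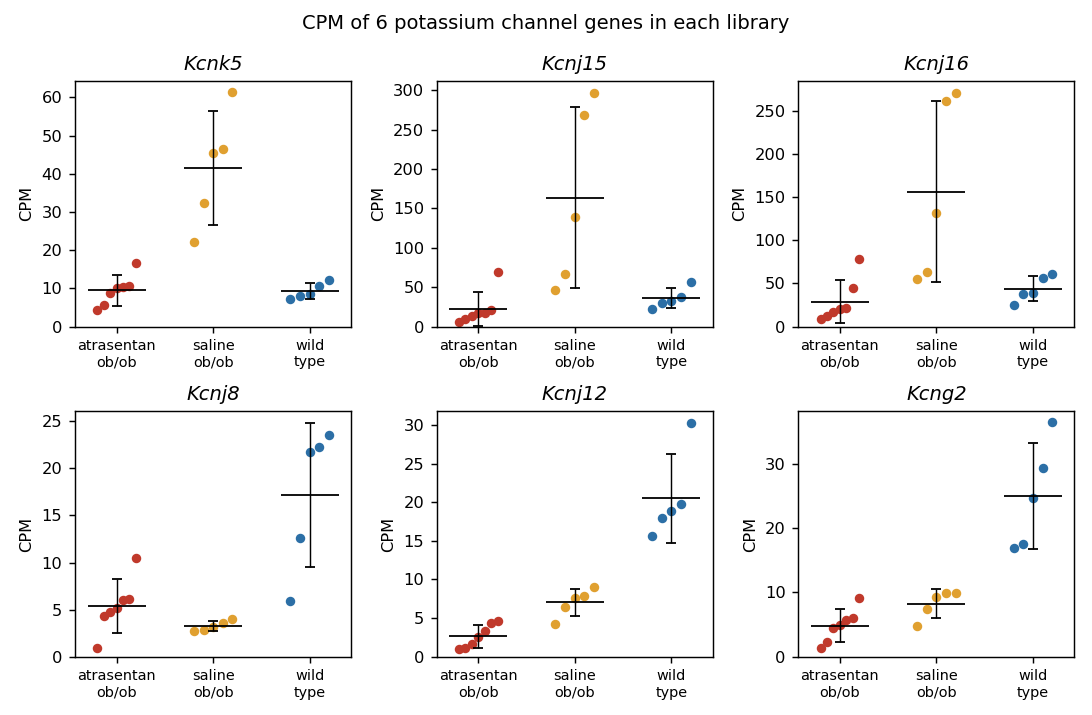
Level (CPM, linear axes from 0) of 6 potassium channel genes in each library, with atrasentan, saline and wild type from left to right, points in rising order within a group, and lines for the mean ± SD (n = 7, 5 and 5). Kcnk5 is highest in the 5 saline libraries, Kcnj15 and Kcnj16 spread widely among them, and Kcnj8, Kcnj12 and Kcng2 have their highest values in wild type.

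Markers of the proximal tubule changed in the same comparisons. The summed level of 20 proximal tubule markers, all of them tested, ran from 356 to 3163 CPM with atrasentan, from 3785 to 19839 CPM with saline and from 2146 to 4598 CPM in wild type. Of the 20, 7 rose and 1 fell in saline against wild type mice, and 18 fell with atrasentan against saline. The 2 saline libraries with the highest Kcnj15, numbers 1 and 3, also had the highest marker sums, 19839 and 18255 CPM. At close marker sums, saline library 2 (4676 CPM) had 46.4 CPM of Kcnk5 and 66.1 CPM of Kcnj15, and wild type library 4 (4598 CPM) had 10.6 CPM of Kcnk5 and 57.0 CPM of Kcnj15. This pair of libraries was chosen after the values were seen, and a single pair is no test. Saline library 4, with the lowest marker sum of its group (3785 CPM), also had the lowest Kcnk5 and Kcnj15 of its group. A further fit held as covariate the difference between the means of the podocyte and of the proximal tubule markers. This covariate averaged -0.15 ± 1.28 with saline (SD, n = 5) and 2.19 ± 0.59 in wild type (SD, n = 5). It ran from -1.44 to 1.57 with saline and from 1.47 to 2.87 in wild type, so it largely follows these groups. A call lost in that fit therefore does not separate group from markers. In the fit Kcnk5 was 1.35 ± 0.36 (SE) for saline against wild type (log2, edgeR adjusted p = 0.235). For atrasentan against saline it was -1.42 ± 0.33 (adjusted p = 0.0191). The same fit gave Kcnj15 log2 fold changes of -0.13 (adjusted p = 0.974) and -0.97 (adjusted p = 0.136), and Kcnj16 one of -0.59 with atrasentan against saline (adjusted p = 0.296). In bulk tissue, fewer cells of a type and less RNA per cell cannot be told apart.

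**Figure D3:**
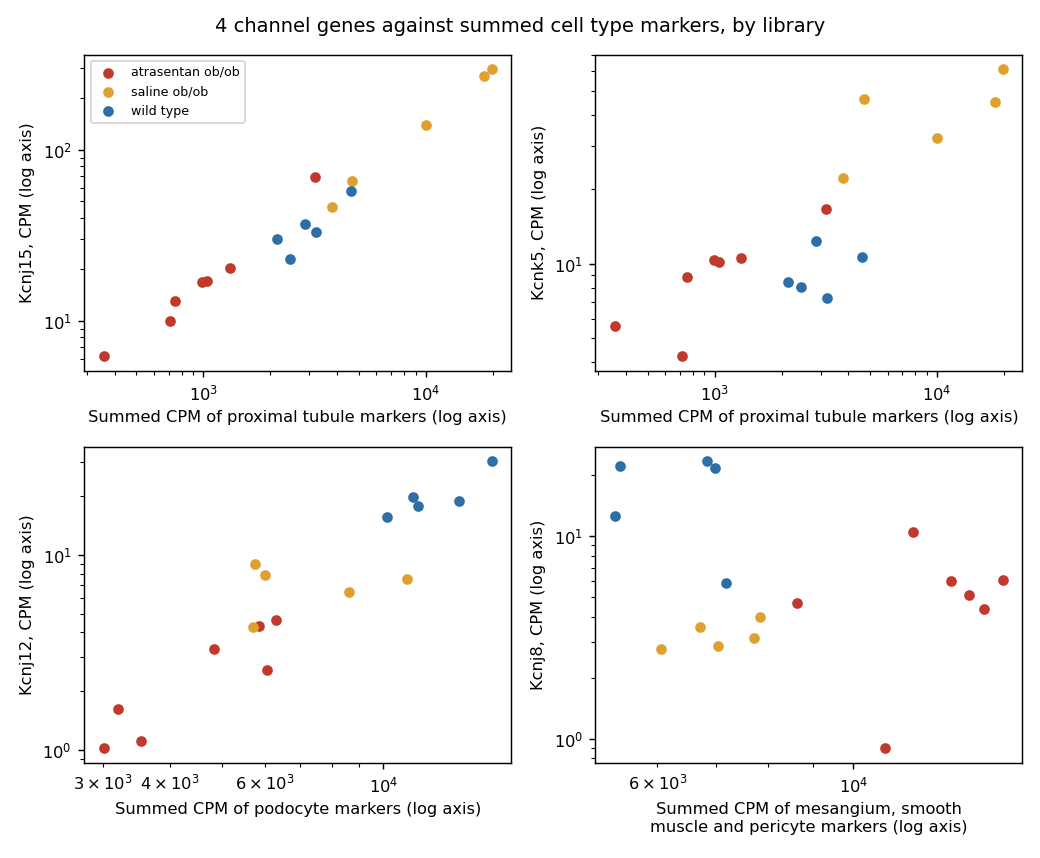
Level of a channel gene (CPM, log axis) against the summed level of a marker list (CPM, log axis) in the 17 libraries, coloured by group, for Kcnj15 and Kcnk5 against proximal tubule, Kcnj12 against podocyte and Kcnj8 against mesangial, smooth muscle and pericyte markers. Kcnj15 is highest in the 2 libraries with the highest proximal tubule sums, and Kcnk5 is above the other groups in every saline library.

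The wider tubular machinery of potassium handling was taken as a list of 28 genes that are no members. It holds pumps, transporters, sodium and chloride channels, kinases and other regulators. None of the 28 was called in saline against wild type mice, where 5.12% of all genes were, and their median log2 fold change was 0.80. With atrasentan against saline, where 18.5% of all genes fell and 15.3% rose, 8 of the 28 fell and 2 rose, with a median of -0.90. Those that fell included Atp1b1 and Fxyd2, subunits of the sodium pump (log2 fold change -2.01 and -1.50) and Slc12a1, the sodium-potassium-chloride transporter of the thick ascending limb (-1.78). The 2 that rose were Slc12a2 (0.72) and Slc12a4 (0.54). Against wild type, where 14.7% of all genes rose and 14.5% fell, 4 of the 28 rose with atrasentan and none fell, with a median of 0.12.

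Among vascular members, in saline against wild type mice 1 of 11 fell and none rose, and the median log2 fold change was 0.15. With atrasentan against saline 2 rose and none fell (median 0.28), and against wild type 1 rose and 2 fell (median 0.12). Over all genes, 3.21% rose and 1.91% fell in saline against wild type mice. With atrasentan 15.3% of all genes rose and 18.5% fell against saline, and 14.7% rose and 14.5% fell against wild type.

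Kcnj8 on chromosome 6 (142564837 to 142571614) was the only one of the 11 tested vascular members called in saline against wild type mice. It had 2.78, 3.13, 3.55, 3.99 and 2.86 CPM in saline mice, against 5.87, 23.5, 12.6, 21.7 and 22.3 CPM in wild type mice. Atrasentan libraries ran from 0.898 to 10.5 CPM with a median of 5.13 CPM. The saline libraries lay below all wild type libraries, and the atrasentan range overlapped both other groups. Kcnj8 fell in saline against wild type mice (log2 fold change -2.39 ± 0.45, edgeR adjusted p = 0.0102) and with atrasentan against wild type (-1.67 ± 0.39, adjusted p = 0.00431). For atrasentan against saline the log2 fold change was 0.72, which missed the threshold (adjusted p = 0.181), and it passed without atrasentan library 2 (adjusted p = 0.0326). The fall in saline mice held in each of the 17 fits without 1 library. It missed the threshold without saline libraries 1 and 3 together (-2.36 ± 0.57, adjusted p = 0.0988) and with the marker covariate (-2.09 ± 0.59, adjusted p = 0.266).

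Abcc9, the partner of Kcnj8 in the vascular ATP-sensitive channel, lies next to it on the same strand. It ran from 19.4 to 88.8 CPM with atrasentan, with a median of 34.5 CPM, and had 18.9, 17.7, 17.3, 17.4 and 17.5 CPM with saline. Wild type libraries had 11.2, 32.9, 23.5, 37.8 and 28.3 CPM. Every atrasentan library lay above every saline library, and Abcc9 rose in that comparison (log2 fold change 1.27 ± 0.33, edgeR adjusted p = 0.00693). It was not called in saline against wild type mice (-0.59 ± 0.34, adjusted p = 0.341) or with atrasentan against wild type (0.69 ± 0.32, adjusted p = 0.115). In wild type library 1 both genes had the lowest level of their group. The other tested partners of channel subunits, Abcc8, Lrrc52 and Lrrc55, were not called in any comparison, and 4 of the 8 partners listed were not tested. Kcnj11, the pore of the pancreatic ATP-sensitive channel, had at most 22 reads in a library and was not tested.

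**Figure D4:**
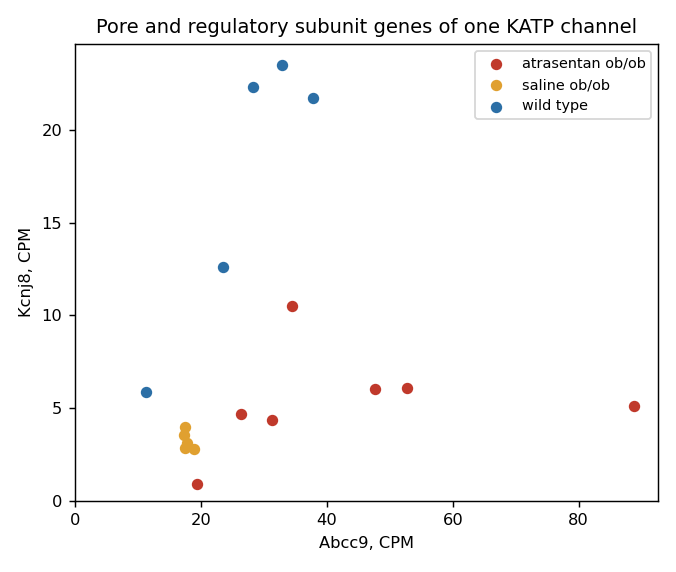
Kcnj8 level (CPM) against Abcc9 level (CPM) in each of 17 libraries, coloured by group. Saline libraries sit together at 2.78 to 3.99 CPM of Kcnj8 and 17.3 to 18.9 CPM of Abcc9, and wild type libraries reach the highest Kcnj8 values and atrasentan libraries the highest Abcc9 values.

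Markers of mesangium, smooth muscle and pericytes, the cells in which Kcnj8 is best known, summed to 8624 to 14765 CPM with atrasentan, to 6053 to 7841 CPM with saline and to 5373 to 7174 CPM in wild type. Of 15 tested markers of that list, none was called in saline against wild type mice, where 5.12% of all genes were. With atrasentan against saline 8 of the 15 rose, where 15.3% of all genes rose. The part of these cells in the level of Kcnj8 was not tested. Actg2 was the marker of the list that was not tested, with at most 9 reads in a library.

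Kcnn4, the intermediate-conductance calcium-activated channel of endothelium and blood cells, ran from 4.74 to 10.5 CPM with atrasentan with a median of 5.33 CPM. It had 4.05, 4.05, 2.16, 3.47 and 4.13 CPM with saline, and 3.81, 3.71, 4.46, 3.04 and 3.74 CPM in wild type. Every atrasentan library was above every other library, and Kcnn4 rose against saline (log2 fold change 0.86 ± 0.23, edgeR adjusted p = 0.00897) and against wild type (0.79 ± 0.23, adjusted p = 0.0157). The first of these missed the threshold with the marker covariate (adjusted p = 0.0835) and without saline libraries 1 and 3 together (adjusted p = 0.0657). Kcnj2, the main inward rectifier of endothelium, ran from 1.69 to 3.28 CPM with atrasentan, with a median of 2.04 CPM, and had 1.42, 1.65, 1.53, 1.16 and 1.22 CPM with saline. These 2 groups did not overlap, and Kcnj2 rose (0.76 ± 0.27, adjusted p = 0.0391). That call was lost without atrasentan library 3, 4 or 6 or saline library 1, 3, 4 or 5 (adjusted p up to 0.0836).

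Kcnk3, an acid-sensitive two-pore channel, ran from 2.55 to 4.87 CPM with atrasentan, with a median of 4.51 CPM, against 3.04, 7.9, 8.88, 7.15 and 8.69 CPM in wild type. Wild type library 1 lay within the atrasentan range. Kcnk3 fell in that comparison (log2 fold change -0.85 ± 0.26, edgeR adjusted p = 0.0207), and the call was lost without wild type library 3 or 5 (adjusted p up to 0.0610). Kcnma1 and Kcnmb1 encode the pore and the smooth muscle accessory subunit of the large-conductance calcium-activated channel, and neither was called. Per kilobase of exon, the mean level of Kcnmb1 was 2.21 RPKM and that of Kcnma1 0.0231 RPKM, with at most 52 reads of Kcnma1 in a library.

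Glomerular endothelial and macrophage markers were higher with atrasentan, as Kcnn4 was. The summed level of 16 endothelial markers ran from 28902 to 42617 CPM with atrasentan, from 18842 to 36805 CPM with saline and from 20944 to 24367 CPM in wild type, and 9 of 16 rose against saline. The sum of 11 macrophage markers ran from 1180 to 4360 CPM with atrasentan, from 556 to 967 CPM with saline and from 504 to 1011 CPM in wild type, and 9 of 11 rose against saline. The part of these cells in the rise of Kcnn4, Kcnj2 and Kcnk13 was not tested.

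Among the 36 other members, 3 fell in saline against wild type mice and none rose, where 1.91% of all genes fell and 3.21% rose. With atrasentan 4 of the 36 rose and 6 fell against saline, where 33.8% of all genes were called. Against wild type 2 rose and 6 fell, where 29.2% of all genes were called.

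Kcnj12 on chromosome 11 (61022564 to 61071131) was the only tested member called lower in all 3 comparisons. It had 8.98, 4.25, 7.92, 7.56 and 6.42 CPM with saline, against 18.8, 19.8, 30.3, 17.9 and 15.6 CPM in wild type. With atrasentan it ran from 1.02 to 4.61 CPM with a median of 2.56 CPM. Wild type libraries lay above all ob/ob libraries, and the atrasentan and saline ranges overlapped at saline library 2. The log2 fold change was -1.54 ± 0.37 for saline against wild type (edgeR adjusted p = 0.0262), -1.41 ± 0.34 for atrasentan against saline (adjusted p = 0.00445) and -2.95 ± 0.34 for atrasentan against wild type (adjusted p = 2.02e-05). The first call was lost without saline library 1, 3 or 5 or wild type library 1, 2, 3 or 5 (adjusted p up to 0.0727), and the second without saline libraries 1 and 3 together (adjusted p = 0.0552).

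Kcng2 on chromosome 18 (80294546 to 80364254) had 7.49, 4.72, 9.91, 9.94 and 9.22 CPM with saline, against 24.7, 29.4, 36.4, 16.9 and 17.5 CPM in wild type. Atrasentan libraries ran from 1.39 to 9.09 CPM with a median of 4.98 CPM. Both ob/ob groups lay wholly below wild type. Kcng2 fell in saline mice (log2 fold change -1.60 ± 0.38, edgeR adjusted p = 0.0262) and with atrasentan against wild type (-2.37 ± 0.35, adjusted p = 0.000117). The first call was lost without saline library 1 or 3 or wild type library 1, 2 or 3 (adjusted p up to 0.0721). D330025C20Rik overlaps 9.10% of its exon bases.

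Kcna6, a Shaker-type voltage-gated channel known from neurons, was at a low level, with 0.0788, 0.14, 0.0568, 0.241 and 0.234 CPM in saline mice against 0.288, 1.24, 0.948, 0.639 and 0.855 CPM in wild type mice. With atrasentan it ran from 0 to 0.262 CPM with a median of 0.109 CPM, so both ob/ob groups lay below wild type. It fell in saline mice (log2 fold change -2.36 ± 0.61, edgeR adjusted p = 0.0361) and with atrasentan against wild type (-2.57 ± 0.55, adjusted p = 0.00224). The first call was lost without saline library 1, 2, 3 or 5 or wild type library 2, 3, 4 or 5 (adjusted p up to 0.111). Gm26673 overlaps 39.6% of the exon bases of Kcna6, so reads of both genes are hard to separate.

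Kcnf1, a silent voltage-gated subunit, ran from 0.272 to 3.7 CPM with atrasentan, with a median of 1.25 CPM, against 9.26, 6.78, 24.0, 8.18 and 4.01 CPM in wild type. Kcnu1, a pH-sensitive channel known from sperm, ran from 0.0398 to 0.475 CPM with atrasentan, with a median of 0.245 CPM, against 1.37, 1.33, 1.9, 0.943 and 1.03 CPM in wild type. The groups did not overlap for either gene. With atrasentan against wild type Kcnf1 fell (log2 fold change -2.47 ± 0.56, edgeR adjusted p = 0.00343), and so did Kcnu1 (-2.57 ± 0.47, adjusted p = 0.000686).

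Podocyte markers were lower in the same samples. The summed level of 20 podocyte markers, all tested, ran from 3006 to 6298 CPM with atrasentan, from 5717 to 11056 CPM with saline and from 10139 to 15929 CPM in wild type. Of these 20, 9 fell and none rose in saline against wild type mice, 8 fell with atrasentan against saline, and 18 fell with atrasentan against wild type. The part of the podocyte markers in the levels of Kcnj12, Kcng2, Kcna6, Kcnf1 and Kcnu1 was not tested beyond the marker covariate. With that covariate, Kcnj12 had a log2 fold change of -1.06 ± 0.52 (edgeR adjusted p = 0.655) in saline against wild type mice. Kcng2 had one of -1.15 ± 0.53 (adjusted p = 0.619) and Kcna6 one of -1.16 ± 0.75 (adjusted p = 0.763). The covariate largely follows the saline and wild type groups, so these lost calls do not test the part of the podocyte markers. Kcnj12, Kcng2, Kcna6, Kcnf1 and Kcnu1 kept their calls against wild type with atrasentan in that fit. The covariate averaged 2.06 ± 1.03 with atrasentan (SD, n = 7) and 2.19 ± 0.59 in wild type (SD, n = 5). Podocyte and proximal tubule markers were both lower with atrasentan, so their difference hardly adjusts that comparison. The kept calls therefore do not test the part of the podocyte markers.

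Further members called lower with atrasentan against saline had wide spreads. Kcne1l, an accessory subunit of voltage-gated channels, had 60, 21, 77, 25 and 47 reads in saline mice, and 0 reads in 3 of 7 atrasentan libraries, with at most 26 reads in library 6. It fell with a log2 fold change of -2.82 ± 0.83 (edgeR adjusted p = 0.0154), which missed the threshold without saline libraries 1 and 3 together (-2.21, adjusted p = 0.132) and with the marker covariate (-0.94, adjusted p = 0.480). Kcnip2, a calcium-binding subunit of Kv4-type channels, ran from 0.0199 to 0.68 CPM with atrasentan, with a median of 0.381 CPM, against 3.15, 0.587, 2.04, 0.337 and 1.07 CPM with saline. The ranges overlapped, and its fall (-2.30 ± 0.72, adjusted p = 0.0209) was lost without saline library 1 or 3 (adjusted p up to 0.0842). Kcnn1, a small-conductance calcium-activated channel, ran from 0.463 to 1.77 CPM with atrasentan and from 0.95 to 4.81 CPM with saline, and Kcnn2, of the same family, from 0 to 1.17 CPM and from 0.615 to 2.39 CPM. Ranges overlapped for both, and Kcnn1 and Kcnn2 fell with log2 fold changes of -1.14 ± 0.41 (adjusted p = 0.0395) and -1.65 ± 0.60 (adjusted p = 0.0404). Kcnn1 lost its call without atrasentan library 1, 2, 3 or 7 or saline library 1, 3 or 5 (adjusted p up to 0.184), and Kcnn2 without atrasentan library 2, 4, 5 or 7 or saline library 1, 3, 4 or 5 (adjusted p up to 0.113). Saline libraries 1 and 3, with the highest proximal tubule marker sums, had the 2 highest levels of Kcne1l, Kcnip2, Kcnn1 and Kcnn2 in their group, and the part of the tubule in them was not tested beyond the covariate.

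Kcnk13, a two-pore channel known from microglia, had 14, 33, 91, 26, 62, 8 and 15 reads in the atrasentan libraries, against 15, 0, 4, 4 and 8 reads with saline. Wild type libraries had 1, 8, 9, 0 and 4 reads. The ranges overlapped, and Kcnk13 rose against saline (log2 fold change 2.46 ± 0.80, edgeR adjusted p = 0.0258) and against wild type (2.78 ± 0.83, adjusted p = 0.0183). The first call was lost without atrasentan library 3 or saline library 3 or 4 (adjusted p up to 0.0651). It was also lost without saline libraries 1 and 3 together (adjusted p = 0.0600) and with the marker covariate (adjusted p = 0.0603). Kcna3, the main voltage-gated channel of T cells, ran from 0.463 to 3.12 CPM with atrasentan, with a median of 1.43 CPM, against 0.604, 0.531, 0.824, 0.698 and 0.39 CPM with saline. The ranges overlapped, and its rise (1.30 ± 0.48, adjusted p = 0.0464) was lost in 12 of the 17 fits without 1 library, which left out atrasentan library 1, 3, 4, 5 or 7, any saline library or wild type library 1 or 5 (adjusted p up to 0.104). Lymphocyte markers summed to 19.4 to 37.3 CPM with atrasentan, 13.8 to 25.1 CPM with saline and 16.4 to 43.5 CPM in wild type.

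Kcnip3, a calcium-binding subunit of Kv4-type channels, ran from 0.653 to 2.56 CPM with atrasentan, with a median of 1.33 CPM, against 0.893, 0.615, 0.795, 0.938 and 0.494 CPM with saline. The ranges overlapped, and its rise (log2 fold change 0.96 ± 0.30, edgeR adjusted p = 0.0199) was lost without saline library 5 (adjusted p = 0.0559). It also missed the threshold without saline libraries 1 and 3 together (adjusted p = 0.0731) and with the marker covariate (0.54, adjusted p = 0.455). Kcnd3, a Kv4-type pore that such subunits bind, ran from 13.3 to 31.6 CPM with atrasentan, with a median of 26.1 CPM, against 9.88, 18.1, 19.1, 20.3 and 18.0 CPM with saline. Its rise was small (0.57 ± 0.21, adjusted p = 0.0432) and was lost without saline library 1, 2, 3 or 5 or without any 1 atrasentan library but number 5 (adjusted p up to 0.115). The call was also lost with RLE scaling (adjusted p = 0.0501), no filter (0.0505) and only the 2 groups compared (0.0644). Without saline libraries 1 and 3 together the adjusted p was 0.208, and with the marker covariate 0.376. Kcnab2, a cytoplasmic beta subunit of voltage-gated channels, ran from 5.85 to 10.6 CPM with atrasentan, with a median of 9.2 CPM, against 7.13, 4.95, 3.57, 7.24 and 5.45 CPM in wild type. It rose in that comparison (0.63 ± 0.19, adjusted p = 0.0209), and the call was lost without wild type library 3 (adjusted p = 0.0621).

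**Figure D5:**
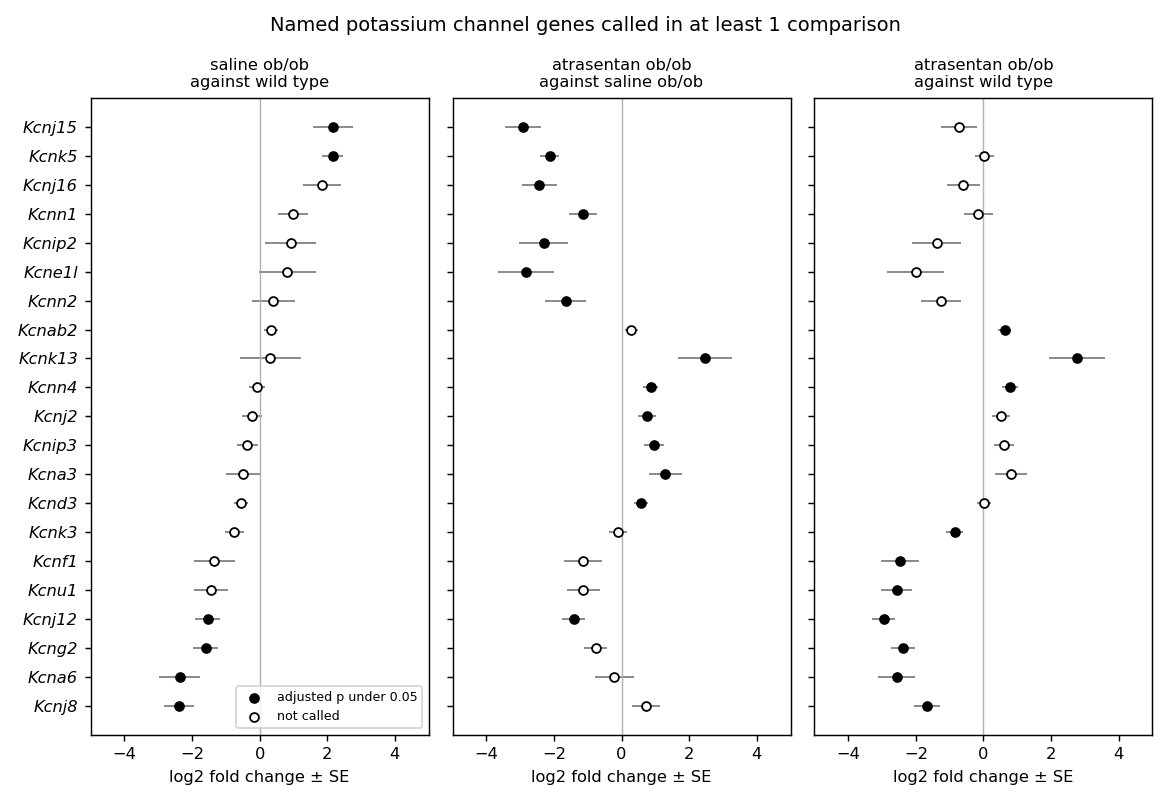
Log2 fold change ± SE of the members named above that were called in at least 1 comparison, with 1 panel for each comparison, filled points for an edgeR adjusted p under 0.05 and open points for the rest. Kcnk5 and Kcnj15 lie on opposite sides of 0 in the first 2 panels, and Kcnj12 is below 0 in all 3.

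Of the 22 members called, 3 fell against wild type in both ob/ob groups without a call between those groups (Kcna6, Kcng2 and Kcnj8), and 1, Kcnj12, fell in all 3 comparisons. Another 2 rose with saline and fell with atrasentan, with no call between atrasentan and wild type (Kcnj15 and Kcnk5). With atrasentan, 2 members rose against both other groups (Kcnk13 and Kcnn4). Between atrasentan and saline alone 5 fell and 4 rose, and between atrasentan and wild type alone 3 fell and 1 rose. A call in one comparison and none in another does not show that the comparisons differ, and they share groups.

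Some members lie close together in the genome. Within 300 kb there were 17 pairs of members, 3 of them with both tested. Kcnj16 and Kcnj2 lie 38.2 kb apart on chromosome 11, and with atrasentan against saline Kcnj16 fell and Kcnj2 rose. Kcnj5 and Kcnj1 lie 28.1 kb apart on chromosome 9, and neither was called in any comparison. Kcna5, a vascular voltage-gated channel, and Kcna6 lie 173 kb apart on chromosome 6, and Kcna6 alone was called.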

How the data were processed

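Read counts per gene for 17 libraries were used as the authors deposited them, unnormalized, and a second deposited table of normalized values was not used. The submitters' processing notes list GRCm38 as build and, without version or purpose, the tools DESeq2, edgeR, HTSeq, limma and STAR. Per the labels' protocols, poly(A) RNA was made into TruSeq libraries with single-end reads. The sources used here give neither strand setting nor annotation release of the counting, so overlapping genes cannot be told apart, and 19 tested members share at least 1% of their exon bases with another gene. HTSeq's lines that name no gene were kept out.

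Symbols came from GENCODE release 21 of the mouse (GRCm38), which named 53274 of 53379 IDs (99.8%). Of 98 matching symbols, 5 antisense transcripts were left out (Kcnab3os, Kcnd3os, Kcnmb4os1, Kcnmb4os2 and Kcnq1ot1). Coordinates are 1-based. Promoter windows came from RefSeq, which had one for 68 members, cut to the 250 bases before the start.

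Counts of all genes were filtered with filterByExpr, scaled with TMM (factors 0.892 to 1.15) and tested two-sided in 1 fit of all 17 libraries with edgeR 4.0.16 in R 4.3.3 (glmQLFit and glmQLFTest, biological coefficient of variation 0.312). P-values were adjusted by Benjamini-Hochberg over 17766 genes, and a gene was called under 0.05. The SE is the size of the log2 fold change divided by the square root of F. CPM uses TMM-scaled library sizes, and RPKM divides it by the kilobases of exon of all transcripts joined. The test code was tested on simulated data. Libraries of a group differed beyond sampling noise in all 41 pairs (chi-square per degree of freedom 26.5 to 275), and each was counted once. Counting error is smallest for the deepest genes, and members with few reads are given by their reads.

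Named with values are members called in a comparison, the 10 with the highest mean RPKM, Kcnj8, Kcnj1, Kcnk5 and those at the filter's edge. Kcnq1, Kcne1, Kcnj10, Kcnma1, Kcnmb1, Kcnmb2, Kcna5, Kcnj11 and the untested members named fall outside that rule and were chosen after values were seen. Some results are not reported here. The members, the lists and the tests were chosen with earlier results of these data known. The alternatives were RLE and upper-quartile scaling, no filter, DESeq2 1.42.0, only the groups compared, a covariate (mean log2 CPM of podocyte minus proximal tubule markers, prior count 2) and each library left out. Leaving out saline libraries 1 and 3 together, or atrasentan libraries 5 and 6 together, was also run. The last of these was chosen after seeing the data.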

Additional observations from a re-analysis of the deposited data

Results flagged for a closer look

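For 26 named members, each group of libraries was searched for 1 library far from the rest by Dixon's test at the 95% level, which made 78 groups. Chance alone flags about 1 in 20 groups, and 7 were found. In atrasentan libraries, Kcnj15 stood at 69.2 CPM in library 6 (the next value was 20.4 CPM), Kcne1l at 0.741 CPM in library 6 (next 0.227 CPM), Kcna3 at 3.12 CPM in library 5 (next 1.6 CPM) and Kcnk13 at 2.58 CPM in library 3 (next 1.23 CPM). In saline library 1, Kcnd3 stood at 9.88 CPM, below the next value of 18 CPM. Wild type library 3 held the highest Kcnf1, 24 CPM (next 9.26 CPM), and the highest Kcnj12, 30.3 CPM (next 19.8 CPM). Atrasentan library 6 also had the highest proximal tubule marker sum of its group, 3163 CPM.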

How the results depend on the processing

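Counts of members called were 6 for saline against wild type, 15 for atrasentan against saline and 11 for atrasentan against wild type. RLE scaling gave 6, 16 and 11, upper-quartile scaling 6, 15 and 11, no filter 5, 13 and 14, and DESeq2 9, 18 and 15. Without 1 library the counts ran from 2 to 7, from 8 to 18 and from 10 to 15. The first was 2 or 3 without saline library 1, 3 or 5 or wild type library 1, 2, 3 or 5, and the second was 8 or 9 without saline library 1, 3 or 5. Only the 2 groups compared gave 10, 12 and 11. With the marker covariate the counts were 0, 2 (Kcnk5 and Kcnj12) and 17. Without saline libraries 1 and 3 the counts of members were 1 (Kcnk5), 4 and 12, and without atrasentan libraries 5 and 6 they were 8, 19 and 16. The share of all genes called in each alternative fit is not given here. A change in these counts is therefore no result about potassium channel genes as such, and its cause was not tested. Of 32 calls, 18 held in every fit without 1 library.

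The covariate turned the log2 fold change of Kcnj1 to -1.12 and of Kcnj15 to -0.13 in saline against wild type, of Kcnip2 to 0.18 and of Kcnj1 to 0.45 with atrasentan against saline, and of Kcnk5 to -0.07 with atrasentan against wild type. In the last comparison Kcnk5 was also -0.065 with upper-quartile scaling, -0.0033 with only the 2 groups and -0.25 without atrasentan libraries 5 and 6. Without 1 library Kcnk5 ran from -0.17 to 0.15 there, and Kcnj1 from -0.58 to 0.08. No paired analysis was possible because the labels carry no replicate numbers. Depth limits members with few reads, such as Kcne1l, Kcnk13 and Kcna6, whose counts reach 0 in some libraries.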
